A study of Rattus norvegicus with 129 samples.

Results

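The Cyp3a genes encode the cytochrome P450 3A enzymes of the rat liver. Every probe set whose array annotation names Cyp3a23-3a1, Cyp3a2, Cyp3a9 or Cyp3a18 was taken, including a probe set that names 2 of them. These are 4 of the 15062 genes named on the 3 array types. The rule uses names and no measured value. One array type, used in 3 studies, holds 8 such probe sets. They are 4 for Cyp3a23-3a1, 1 each for Cyp3a2, Cyp3a9 and Cyp3a18, and 1 shared by Cyp3a2 and Cyp3a23-3a1. The other 2 array types hold 1 probe set for each gene. Of 3 further rat Cyp3a symbols, Cyp3a62, Cyp3a73 and Cyp3a85, 0 of 3 had a probe set that names the gene alone. Probe sets that they may share with other genes were not counted.

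Liver RNA of 128 rats in 31 groups of 5 studies were compared, each treated group with its own vehicle or diet. The series asks whether genes regulated by the nuclear receptors CAR and PXR respond to perfluoroalkyl acids, and sets known inducers beside them. Sprague-Dawley females and males were given phenobarbital, pregnenolone-16α-carbonitrile (PCN) or vehicle by gavage. The dose of each was 100 mg/kg and the vehicle was 0.5% methylcellulose with 1% Tween 80. Livers were taken 6 h or 24 h after 1 dose, or 24 h after 5 daily doses, from 5 rats a group. The 6 h group of vehicle males kept 4. Sprague Dawley rats labelled female, 4 weeks old, ate D3T (3H-1,2-dithiole-3-thione) at 600 mg/kg of diet or control diet, with 4 rats each. Female Sprague-Dawley rats, 60 days old, had 5 mg/kg PFOS or 0.5% Tween-20 by gavage every day for 3 weeks, with 2 rats each. Male Sprague-Dawley rats, 10 weeks old, had PFOA at 20 mg/kg/day, PFOS at 10 mg/kg/day or 15% Alkamuls EL-620 by gavage, with 3 rats each, and the labels used here give no duration. Male Wistar Hanover rats had Wy-14643 at 60 mg/kg/day or carboxymethyl cellulose for 1, 3 or 7 days, with 3 rats each. The label of 1 rat of the 3-day Wy-14643 group states no dose.

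CYP3A enzymes sit in the endoplasmic reticulum of hepatocytes and oxidise steroids, bile acids and a large share of drugs. PXR binds PCN in rodents, CAR is activated by phenobarbital, and each pairs with RXR on repeated AGGTCA-like half-sites near P450 genes. In rat liver Cyp3a2 and Cyp3a18 are known as male-biased genes and Cyp3a9 as a female-biased one, under the control of the growth hormone rhythm. PFOA and PFOS are perfluoroalkyl acids, Wy-14643 is an agonist of PPARα, and D3T activates NRF2.

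The promoters of the 4 genes are shown because they differ in the half-site repeat that PXR and CAR can bind. The genes also differed in response below, and a link between repeat and response was not tested. The windows hold bases -180 to -61 from the annotated start, on the gene's own strand, from RefSeq on GRCr8, where all 4 genes matched a promoter. All 4 lie on chromosome 12. Cyp3a23-3a1 is the window chr12:14398864-14398983 (minus strand), Cyp3a2 is chr12:14343918-14344037 (minus), Cyp3a9 is chr12:21960221-21960340 (minus) and Cyp3a18 is chr12:13994132-13994251 (plus). Capitals mark the half-sites of a DR3, 2 copies of AGTTCA or AGGTCA in the same direction with 3 bases between, searched on both strands. Here they read TGAACT because the repeat runs on the other strand.
Cyp3a23-3a1: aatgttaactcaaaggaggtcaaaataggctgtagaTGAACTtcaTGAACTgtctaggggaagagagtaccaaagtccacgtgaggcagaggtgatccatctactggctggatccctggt
Cyp3a2: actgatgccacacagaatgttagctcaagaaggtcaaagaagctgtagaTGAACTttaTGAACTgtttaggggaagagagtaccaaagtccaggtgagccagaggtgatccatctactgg
Cyp3a9: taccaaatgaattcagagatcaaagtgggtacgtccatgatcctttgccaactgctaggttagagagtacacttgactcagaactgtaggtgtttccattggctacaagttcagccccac
Cyp3a18: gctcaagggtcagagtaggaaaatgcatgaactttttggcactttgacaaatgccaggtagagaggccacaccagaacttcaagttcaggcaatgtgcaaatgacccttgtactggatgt

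The DR3 lay at -144 to -130 in Cyp3a23-3a1 and at -131 to -117 in Cyp3a2. The 2 repeats differ by C8T, counted from 1 at the 5′ end of the repeat on the gene's strand, from Cyp3a23-3a1 to Cyp3a2. That base is in the spacer. No DR3 with these letters was in the 250 bases before the start of Cyp3a9 or Cyp3a18, which held single half-sites. Of all 33465 RefSeq rat promoters, searched over the same 250 bases, 13 (0.0388 percent) held a DR3. The same half-sites spaced by 4 bases (DR4) were in 0.0149 percent, the everted repeat with 6 bases between (ER6) was in 0.00299 percent, and neither was in the members. Over the 250 bases before the start, the Cyp3a23-3a1 and Cyp3a2 promoters were identical at 79.2 percent of 265 aligned columns. The other pairs were identical at 50.4 to 57.3 percent. On the same build Cyp3a18 spans chr12:13994312-14044185, Cyp3a2 chr12:14321771-14343886, Cyp3a23-3a1 chr12:14369950-14398803 and Cyp3a9 chr12:21919955-21960160. A match is a description of the letters and was not tied to binding here.

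Values below are log2(intensity + 16) after normalisation within a study, with a floor at 4.00. Differences are log2, treated minus its control, ± SE from limma, and a probe set was called where the Benjamini-Hochberg adjusted p over all tested probe sets was under 0.05, two-sided. Mean deposited intensity ranged from 159 to 454.5 over arrays in the phenobarbital and PCN experiment and from 93.3 to 614 over the others, and 15.2 to 32.6 percent of values per array were at or under 0. One vehicle male at 6 h, rat 1003, correlated at 0.62 or less with each rat of its group, against 0.940 to 0.982 within every group without it, and was left out. With it kept, the lead Cyp3a23-3a1 probe set in males at 6 h differed by 0.72 for phenobarbital and 1.23 for PCN, and stayed called, but 13 calls on other probe sets or comparisons were lost and 1 was gained. The lost calls are given with their probe sets. Of 8 hepatocyte markers 7 were measured, and their summed intensity was 46283 to 54299 over the rats of that study. Cps1 was lower in 6 of its 12 treatment comparisons, with differences of -0.24 to -0.38, Fgb was lower in 3 of the PCN groups, with -0.34 to -0.38, and Apoa1 was higher in the same 3, by 0.57 to 0.58. Alb was lower in phenobarbital males at 5 days, at -0.11. Over its 12 treatment comparisons, 0 of 4 macrophage, 0 of 3 endothelial, 0 of 3 stellate cell, 0 of 3 lymphocyte and 0 of 2 blood markers passed, and Des, Cd3d and Lgals4 lay at the floor in every rat. The bile duct marker Epcam rose by 0.52 to 0.78 in 3 of the 5-day groups, and the intestinal marker Fabp2 rose by 2.17 in PCN females at 24 h. Whole liver was measured, so fewer cells of a type and less RNA per cell cannot be told apart.

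In vehicle rats the 4 genes split by sex. Cyp3a2 and Cyp3a18 were lower in vehicle females than in vehicle males at each time, and Cyp3a9 was higher in females at 24 h and 5 days. Of the 8 probe sets 5 were called at 6 h, 5 at 24 h and 4 at 5 days, where 6.48, 5.03 and 5.29 percent of all probe sets were called in either direction.

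Cyp3a2, a steroid 6β-hydroxylase, read 4.00, 4.00, 4.00, 4.00 and 5.25 in vehicle females at 5 days, against 11.21, 11.57, 11.57, 11.58 and 11.61 in vehicle males. Most females lay at the floor and no female came near a male. The difference was -7.26 ± 0.34 at 5 days, -7.31 ± 0.34 at 24 h and -7.41 ± 0.36 at 6 h, and each understates the true one where females sit at the floor. Cyp3a18, another steroid hydroxylase, read 6.09, 6.23, 6.45, 7.36 and 7.39 in vehicle females at 5 days, against 9.38, 10.04, 10.08, 10.22 and 10.40 in vehicle males. The sexes did not overlap, and the difference was -3.16 ± 0.30 at 6 h, -2.90 ± 0.29 at 24 h and -3.32 ± 0.29 at 5 days.

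Cyp3a9 read 9.56, 9.75, 10.33, 10.36 and 10.65 in vehicle females at 5 days, against 6.45, 6.61, 6.92, 7.53 and 8.11 in vehicle males. All females were above all males, by 3.01 ± 0.48 (adjusted p = 2.64e-06). The difference was 0.81 ± 0.51 (adjusted p = 0.459) at 6 h, which did not pass, and 1.67 ± 0.48 (adjusted p = 0.0226) at 24 h. The 24 h call was lost on leaving out any 1 of 6 rats, with adjusted p of 0.056 to 0.096. Vehicle females averaged 8.30 at 6 h, 8.36 at 24 h and 10.13 at 5 days, and these vehicle groups were not compared by a test.

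Cyp3a23-3a1, the PCN-inducible CYP3A of the rat, showed a small sex difference. Its lead probe set, the brightest of the 4 on average, differed by -0.67 ± 0.18 (adjusted p = 0.0106) at 6 h, -0.53 ± 0.17 (adjusted p = 0.0519) at 24 h and -0.27 ± 0.17 (adjusted p = 0.488) at 5 days, and only the first passed. That call was lost without vehicle male 1001, at -0.45 (adjusted p = 0.172), without vehicle female 1501 (0.0826) or 1505 (0.0575), and in a fit of only the groups compared (0.490). D13912_s_at differed by -0.66 at 6 h and -0.42 at 24 h, and with rat 1003 kept both calls were lost, at -0.13 (adjusted p = 0.798) and -0.42 (adjusted p = 0.424). The shared Cyp3a2 and Cyp3a23-3a1 probe set was lower in females, with differences of -3.74, -2.91 and -2.46 at the 3 times. Among other P450 genes with a known sex bias, the male-biased Cyp2c13 differed by -6.94, -6.65 and -6.47 and the female-biased Cyp2c12 by 2.09, 2.6 and 2.7 at these times. In a fit of the 2 vehicle groups alone, 3 Cyp3a probe sets were called at 6 h and 3 at 24 h.

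**Figure D1:**
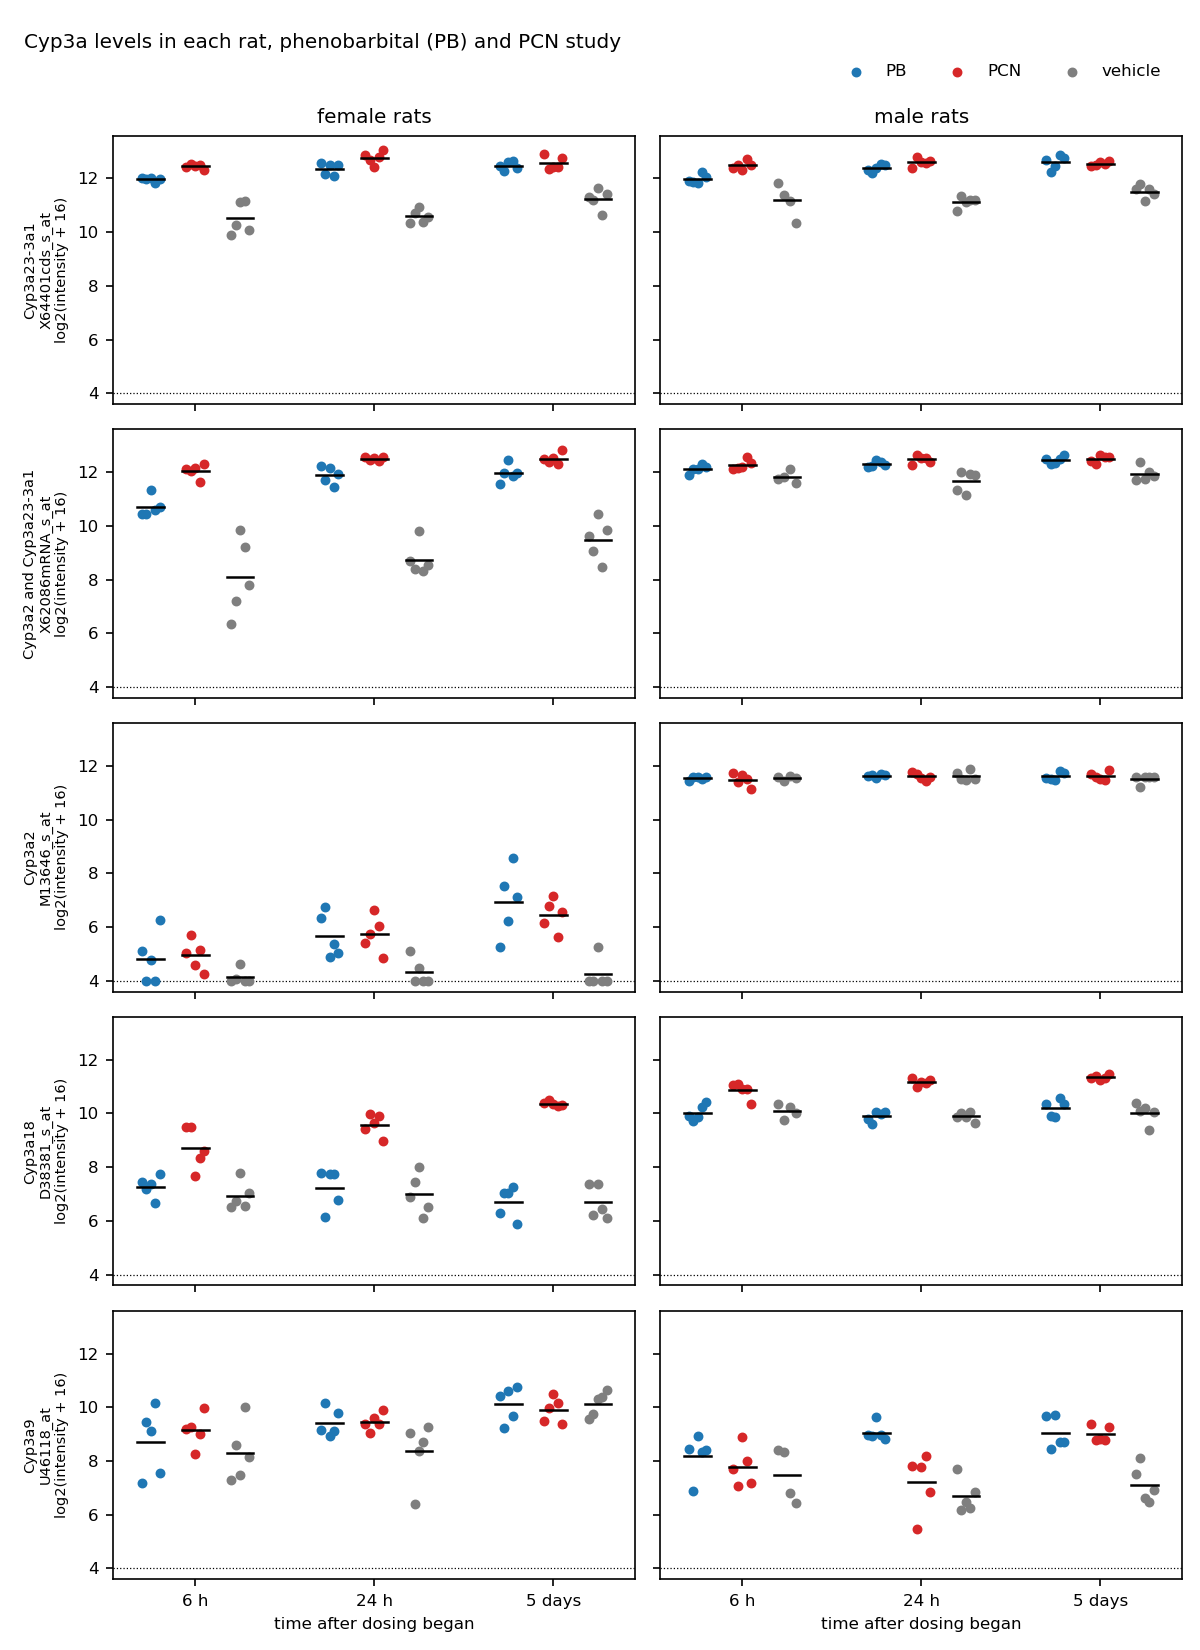
Log2 normalised intensity (vertical axis) of 5 Cyp3a probe sets, 1 per row, in each rat of the phenobarbital and PCN study, with females in the left column and males in the right and the times along each horizontal axis. Points are rats and bars are group means; Cyp3a2 lies at or near the floor of 4.00 in vehicle females and near 11.5 in males, and treated females sit above vehicle females in the rows of Cyp3a23-3a1 and of the shared probe set.

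Cyp3a transcripts rose with phenobarbital and with PCN, and none fell. Of 96 tests (8 probe sets in 12 comparisons) 63 were called higher and 0 lower by limma, and 72 had an unadjusted p under 0.05. The own probe sets of Cyp3a23-3a1 gave 12, 12, 12 and 9 of these calls and the shared probe set 6. Cyp3a18 gave 5, Cyp3a2 4 and Cyp3a9 3, so most of the count comes from a single gene. Cyp3a23-3a1 rose in both sexes with both compounds, and Cyp3a18 rose with PCN. Cyp3a2 rose in females at 24 h and 5 days, and Cyp3a9 was called in 3 of 6 comparisons in males and 0 of 6 in females. The effect differed between the sexes by test for Cyp3a2 with both compounds and Cyp3a18 with PCN at 5 days, and for the shared probe set at each time, and for Cyp3a9 the difference between sexes did not pass.

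In phenobarbital males 3, 5 and 5 of 8 probe sets rose at 6 h, 24 h and 5 days, where 0.618, 1.37 and 2.56 percent of all 8740 probe sets rose. In PCN males 3, 4 and 6 rose, where 1.30, 0.469 and 2.93 percent of all rose. In phenobarbital females the counts were 5, 6 and 6, against 1.30, 2.31 and 1.45 percent of all. In PCN females they were 6, 7 and 7, against 1.51, 2.28 and 4.44 percent. The median difference of the 8 probe sets was 0.57, 1.04 and 0.96 in phenobarbital males, 0.76, 1.13 and 1.12 in PCN males, 1.28, 1.48 and 1.15 in phenobarbital females and 1.83, 2.16 and 1.65 in PCN females, and the median of all probe sets was 0 in each comparison. Most of the 8 probe sets name Cyp3a23-3a1, so these counts and medians weigh that gene more than the others. At 6 h the counts for phenobarbital males, PCN males and phenobarbital females were each 0 where only the groups compared were fitted.

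**Figure D2:**
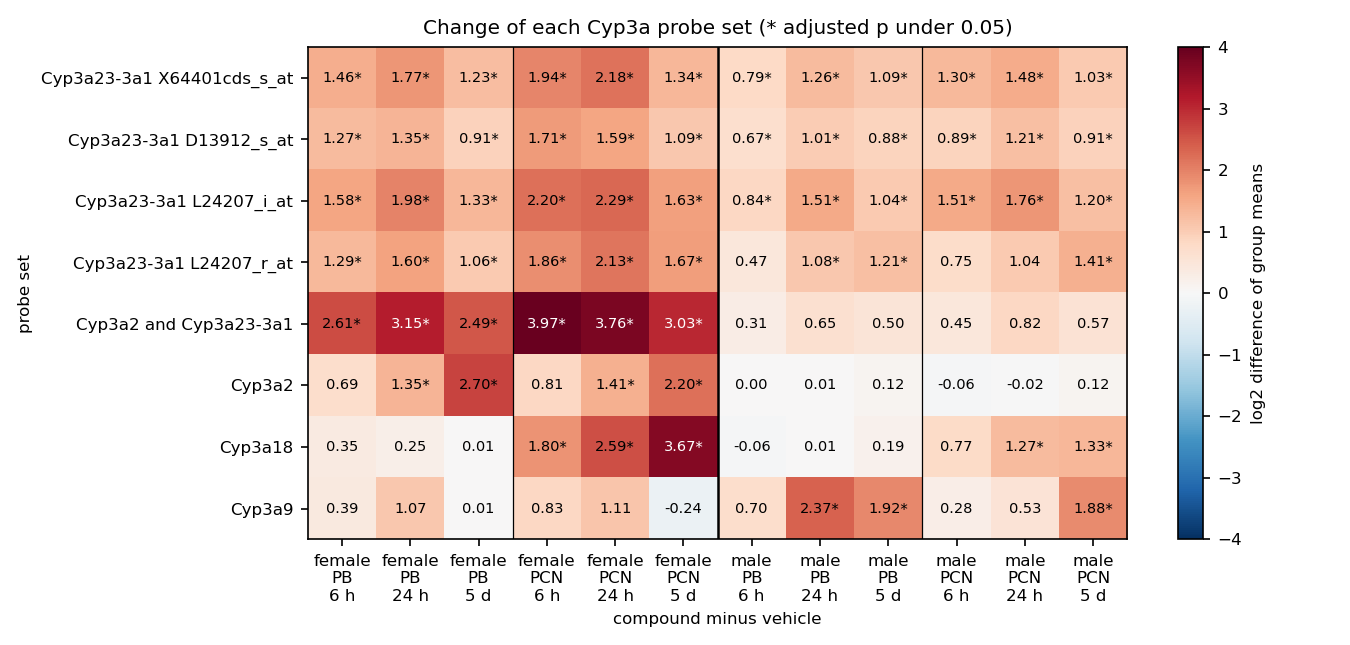
Log2 difference from vehicle (colour) of the 8 Cyp3a probe sets (rows) in the 12 phenobarbital and PCN comparisons (columns), with the value printed in each cell. Stars mark an adjusted p under 0.05: the Cyp3a23-3a1 rows are starred nearly throughout and the shared probe set in all 6 female columns. Cyp3a18 is starred in 5 of the 6 PCN columns, Cyp3a2 in 4 of the 6 female columns and Cyp3a9 in 3 of the 6 male columns.

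Cyp3a23-3a1 rose in all 12 comparisons on 3 of its 4 own probe sets. At 6 h its lead probe set read 11.83, 11.97, 11.99, 12.03 and 12.03 in phenobarbital females and 12.33, 12.44, 12.47, 12.50 and 12.55 in PCN females, against 9.90, 10.09, 10.28, 11.13 and 11.17 in vehicle females. Every treated female was above every vehicle female, and 2 vehicle females were about 1 log2 unit above the other 3. At 24 h it read 12.10, 12.18, 12.49, 12.50 and 12.56 in phenobarbital females and 12.44, 12.69, 12.81, 12.87 and 13.07 in PCN females, against 10.36, 10.39, 10.56, 10.71 and 10.95 in vehicle females. After 5 days it read 12.28, 12.38, 12.45, 12.62 and 12.64 in phenobarbital females and 12.36, 12.44, 12.44, 12.76 and 12.91 in PCN females, against 10.64, 11.19, 11.32, 11.41 and 11.66 in vehicle females.

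At 24 h all PCN females but 1 were above the highest of the phenobarbital females, and after 5 days the treated groups overlapped. In females the difference was 1.46 ± 0.17, 1.77 ± 0.17 and 1.23 ± 0.17 for phenobarbital and 1.94 ± 0.17, 2.18 ± 0.17 and 1.34 ± 0.17 for PCN at 6 h, 24 h and 5 days. The PCN value at 24 h is 4.53-fold. All 6 passed, with adjusted p of at most 1.60e-07. Vehicle females averaged 10.51, 10.60 and 11.24 at these times, which were not compared by a test. The Fabp2 rise in PCN females at 24 h stands beside these values: the summed intensity of the 2 measured intestinal markers was 162 to 339 there, against 31.3 to 58.1 in vehicle females, and its part in the result was not tested.

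In males at 6 h the lead probe set read 11.81, 11.87, 11.91, 12.05 and 12.25 in phenobarbital males and 12.33, 12.40, 12.49, 12.50 and 12.74 in PCN males, against 10.34, 11.17, 11.39 and 11.85 in vehicle males. The phenobarbital males overlapped with the highest vehicle male, and the PCN males did not. In males at 24 h it read 12.21, 12.32, 12.39, 12.49 and 12.55 in phenobarbital males and 12.38, 12.58, 12.62, 12.66 and 12.79 in PCN males, against 10.79, 11.14, 11.18, 11.20 and 11.33 in vehicle males. In males after 5 days it read 12.25, 12.45, 12.69, 12.78 and 12.86 in phenobarbital males and 12.45, 12.49, 12.55, 12.60 and 12.64 in PCN males, against 11.17, 11.42, 11.59, 11.61 and 11.78 in vehicle males.

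At the later times every treated male was above every vehicle male. In males the difference was 0.79 ± 0.18, 1.26 ± 0.17 and 1.09 ± 0.17 for phenobarbital and 1.30 ± 0.18, 1.48 ± 0.17 and 1.03 ± 0.17 for PCN. The phenobarbital call at 6 h (adjusted p = 0.0108) was lost without vehicle rat 1005, at 0.51 with adjusted p = 0.29, and without phenobarbital rat 4004, at 0.73 with adjusted p = 0.054.

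The other 3 probe sets of Cyp3a23-3a1 moved with the lead one. The first, D13912_s_at, was called in 12 of 12 comparisons with differences of 0.67 to 1.71. L24207_i_at was called in 12 of 12 with 0.84 to 2.29, and L24207_r_at in 9 of 12 with 0.47 to 2.13. The 3 comparisons that L24207_r_at missed were all in males, phenobarbital at 6 h (0.47), PCN at 6 h (0.75) and PCN at 24 h (1.04). With rat 1003 kept, L24207_i_at lost its 5-day calls in phenobarbital males (adjusted p = 0.213), PCN males (0.120) and phenobarbital females (0.115), and L24207_r_at lost those in phenobarbital males at 24 h (0.0523) and phenobarbital females at 5 days (0.0574). These last 2 were each also lost on leaving out any 1 of 5 rats, with values of at least 0.96 and 0.92. In phenobarbital males at 6 h, D13912_s_at was 0.46 (adjusted p = 0.167) and L24207_i_at 0.60 (adjusted p = 0.199) without vehicle rat 1005, and L24207_i_at was 0.74 (adjusted p = 0.0552) without phenobarbital rat 4004. In fits of only the groups compared, 3 calls of D13912_s_at, 3 of L24207_i_at and 6 of L24207_r_at were lost. Over the 18 group means the 4 probe sets correlated with each other at 0.96 to 0.99, on the same 89 arrays.

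The shared Cyp3a2 and Cyp3a23-3a1 probe set was called higher in females at each time and in males at none. In females at 6 h it read 10.43, 10.43, 10.58, 10.70 and 11.35 in phenobarbital females and 11.64, 12.05, 12.10, 12.17 and 12.29 in PCN females, against 6.34, 7.22, 7.80, 9.21 and 9.86 in vehicle females. All PCN females lay above all phenobarbital females, and these above all vehicle females. The difference was 2.61 ± 0.29, 3.15 ± 0.29 and 2.49 ± 0.29 for phenobarbital, which is 6.11-, 8.9- and 5.61-fold, and 3.97 ± 0.29, 3.76 ± 0.29 and 3.03 ± 0.29 for PCN. The PCN value at 6 h is 15.6-fold (adjusted p = 1.67e-17), the largest of the 96.

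In males at 24 h the same probe set read 12.21, 12.23, 12.26, 12.38 and 12.44 in phenobarbital males and 12.27, 12.39, 12.52, 12.55 and 12.65 in PCN males, against 11.14, 11.33, 11.88, 11.93 and 12.00 in vehicle males. The treated males lay above the vehicle males there, by less than 1 log2 unit on average. In males it differed by 0.31, 0.65 and 0.50 with phenobarbital and 0.45, 0.82 and 0.57 with PCN, and none passed (adjusted p from 0.286 to 0.974). Its vehicle males averaged 11.82, 11.66 and 11.94, against a highest value of 13.57 for any probe set of the study. The annotation names 2 genes for this probe set, so its signal cannot be split between them.

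Cyp3a2 rose in females at 24 h and 5 days. In females at 24 h it read 4.88, 5.05, 5.38, 6.33 and 6.74 in phenobarbital females and 4.83, 5.39, 5.75, 6.04 and 6.65 in PCN females, against 4.00, 4.00, 4.00, 4.49 and 5.12 in vehicle females. In phenobarbital females 2 of 5, and in PCN females 1 of 5, lay below the highest vehicle rat. After 5 days females read 5.28, 6.23, 7.13, 7.54 and 8.59 in phenobarbital females and 5.61, 6.17, 6.55, 6.79 and 7.15 in PCN females, against 4.00, 4.00, 4.00, 4.00 and 5.25 in vehicle females.

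At 5 days all treated females were above all vehicle females, 4 of which lay at the floor. The difference was 0.69 ± 0.34 (adjusted p = 0.438), 1.35 ± 0.34 (adjusted p = 0.00692) and 2.70 ± 0.34 (adjusted p = 7.15e-09) for phenobarbital, and 0.81 ± 0.34 (adjusted p = 0.272), 1.41 ± 0.34 (adjusted p = 0.00505) and 2.20 ± 0.34 (adjusted p = 6.20e-07) for PCN. The 6 h values did not pass. In males Cyp3a2 was 11.14 to 11.84 in treated rats, against 11.21 to 11.90 in vehicle rats, and the 6 differences of -0.06 to 0.12 did not pass. Treated females still lay below every vehicle male: the highest treated female read 8.59. With values this near the floor the size depends on the pseudocount. With a pseudocount of 64 both 24 h calls were lost, at 0.58 (adjusted p = 0.0828) and 0.59 (adjusted p = 0.0747). They were also lost with rat 1003 kept, at adjusted p of 0.225 for phenobarbital and 0.173 for PCN, and in a fit of only the groups compared, at 0.164 and 0.0941. The phenobarbital value at 24 h was 1.09 (adjusted p = 0.0521) without phenobarbital rat 4507. In a fit of only the groups compared the 5-day phenobarbital value had an adjusted p of 0.0957.

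Cyp3a18 rose with PCN and not with phenobarbital. In females after 5 days it read 5.87, 6.31, 7.05, 7.06 and 7.28 in phenobarbital females and 10.27, 10.31, 10.36, 10.39 and 10.52 in PCN females, against 6.09, 6.23, 6.45, 7.36 and 7.39 in vehicle females. All PCN females lay above every other female, and the phenobarbital females overlapped with the vehicle females. In females at 24 h it read 6.13, 6.77, 7.74, 7.74 and 7.79 in phenobarbital females and 8.96, 9.44, 9.64, 9.89 and 9.98 in PCN females, against 6.10, 6.52, 6.88, 7.46 and 7.99 in vehicle females. In females at 6 h it read 6.66, 7.18, 7.39, 7.44 and 7.73 in phenobarbital females and 7.69, 8.36, 8.61, 9.49 and 9.51 in PCN females, against 6.51, 6.55, 6.76, 7.04 and 7.78 in vehicle females.

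The PCN females lay above all vehicle females at 24 h, and at 6 h 1 of 5 lay below the highest vehicle female. The PCN difference in females was 1.80 ± 0.29, 2.59 ± 0.29 and 3.67 ± 0.29 at 6 h, 24 h and 5 days, the last being 12.7-fold (adjusted p = 4.94e-17). The phenobarbital difference was 0.35 ± 0.29 (adjusted p = 0.869), 0.25 ± 0.29 (adjusted p = 0.927) and 0.01 ± 0.29 (adjusted p = 1). PCN brought the 5-day female mean to 10.37 ± 0.10 (SD, n = 5), against 10.02 ± 0.39 in vehicle males of the same time and 6.70 ± 0.62 in vehicle females. In the fit of only the groups compared the 6 h PCN call in females was lost (adjusted p = 0.0985).

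In males after 5 days Cyp3a18 read 9.86, 9.90, 10.35, 10.35 and 10.59 in phenobarbital males and 11.25, 11.33, 11.34, 11.39 and 11.47 in PCN males, against 9.38, 10.04, 10.08, 10.22 and 10.40 in vehicle males. Every PCN male was above every vehicle male, and the phenobarbital males overlapped with them. The PCN difference in males was 0.77 ± 0.30 (adjusted p = 0.239) at 6 h, 1.27 ± 0.29 (adjusted p = 0.008) at 24 h and 1.33 ± 0.29 (adjusted p = 9.62e-04) at 5 days, and the first did not pass. Phenobarbital males differed by -0.06, 0.01 and 0.19, and none passed.

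Cyp3a9 rose in males with phenobarbital at 24 h and with both compounds at 5 days. In males at 24 h it read 8.80, 8.92, 8.96, 8.97 and 9.64 in phenobarbital males and 5.47, 6.85, 7.78, 7.81 and 8.19 in PCN males, against 6.17, 6.26, 6.46, 6.83 and 7.71 in vehicle males. All phenobarbital males were above all vehicle males, and PCN males overlapped with them. After 5 days males read 8.45, 8.69, 8.71, 9.66 and 9.70 in phenobarbital males and 8.79, 8.79, 8.80, 9.25 and 9.36 in PCN males, against 6.45, 6.61, 6.92, 7.53 and 8.11 in vehicle males. At 6 h males read 6.88, 8.32, 8.39, 8.45 and 8.95 in phenobarbital males and 7.08, 7.19, 7.69, 8.00 and 8.89 in PCN males, against 6.43, 6.82, 8.33 and 8.39 in vehicle males.

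After 5 days both treated groups lay above all vehicle males, and at 6 h the groups overlapped. The difference was 0.70 ± 0.51 (adjusted p = 0.833), 2.37 ± 0.48 (adjusted p = 7.42e-04) and 1.92 ± 0.48 (adjusted p = 0.00669) for phenobarbital and 0.28 ± 0.51 (adjusted p = 1), 0.53 ± 0.48 (adjusted p = 0.956) and 1.88 ± 0.48 (adjusted p = 0.00764) for PCN. The 24 h phenobarbital value is 5.17-fold. Treated males reached means of 9.04 with phenobarbital and 9.0 with PCN at 5 days, against 10.13 in vehicle females. Females after 5 days read 9.23, 9.67, 10.42, 10.62 and 10.74 in phenobarbital females and 9.38, 9.47, 9.98, 10.14 and 10.48 in PCN females, against 9.56, 9.75, 10.33, 10.36 and 10.65 in vehicle females. These overlapped, and the 6 female differences of -0.24 to 1.11 did not pass. In the fit of only the groups compared the 5-day phenobarbital call in males was lost (adjusted p = 0.063).

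Phenobarbital and PCN were given at the same dose and times, so their rats were compared directly: 48 tests gave 1 call higher with phenobarbital and 8 lower, and 16 had an unadjusted p under 0.05. Cyp3a18 was lower in phenobarbital than in PCN rats in 5 of 6 comparisons. Of the 8 probe sets 0, 2 and 1 were called in males at 6 h, 24 h and 5 days, against 0.355, 1.19 and 3.10 percent of all probe sets. In females 4, 1 and 1 were called, against 6.95, 4.52 and 6.89 percent. The 0 in males at 6 h is by limma, with 31 of 8740 probe sets called in all and 566 at an unadjusted p under 0.05; leaving out single rats gave a count of at most 1, and no other setting gave any.

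Cyp3a18 differed by -1.45 ± 0.29, -2.34 ± 0.29 and -3.66 ± 0.29 in females at 6 h, 24 h and 5 days, and by -1.27 ± 0.29 (adjusted p = 0.00646) and -1.14 ± 0.29 (adjusted p = 0.0109) in males at 24 h and 5 days. In males at 6 h it was -0.83 ± 0.29 (adjusted p = 0.312). At 6 h in females the shared probe set was lower with phenobarbital, with a difference of -1.36 (adjusted p = 7.67e-04), D13912_s_at differed by -0.44 (adjusted p = 0.0286) and L24207_i_at by -0.61 (adjusted p = 0.0173). The count of 4 was 2 under median scaling and 2 with rat 1003 kept. Cyp3a9 was higher with phenobarbital in males at 24 h, by 1.84 ± 0.48 (adjusted p = 0.0289), and this call was lost without phenobarbital rat 4008 or 4009 or PCN rat 5010 or 5007, at 1.40 with adjusted p = 0.217 in the last case.

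For the other pairs no difference was called, which does not show that the compounds act alike. The lead Cyp3a23-3a1 probe set differed by -0.51 (95% interval -0.85 to -0.17) in males at 6 h, -0.22 (-0.56 to 0.12) at 24 h and 0.06 (-0.28 to 0.40) at 5 days. In females it differed by -0.49 (-0.83 to -0.15) at 6 h, with an adjusted p of 0.0711 that was 0.00684 in the fit of only the groups compared. At 24 h in females it differed by -0.41 (-0.75 to -0.07). Cyp3a2 in females at 5 days differed by 0.50 (-0.18 to 1.17).

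The sex difference in response was tested as the effect in females minus the effect in males. Of 48 tests 9 were called, all larger in females, on the shared probe set, Cyp3a2 and Cyp3a18. For phenobarbital 1, 1 and 2 of 8 probe sets were called at 6 h, 24 h and 5 days, against 0.355, 0.0114 and 0.0686 percent of all probe sets larger in females. For PCN 1, 1 and 3 were called, against 0.0343, 0.0229 and 0.320 percent.

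The shared probe set differed by 2.30 ± 0.43, 2.51 ± 0.41 and 1.99 ± 0.41 for phenobarbital and by 3.52 ± 0.43, 2.94 ± 0.41 and 2.46 ± 0.41 for PCN, and all 6 passed. Its 5-day phenobarbital value was 1.73 (adjusted p = 0.071) without female vehicle rat 1514, and 1.91 (adjusted p = 0.057) under median scaling. In fits of only the groups compared, its phenobarbital calls were lost at 6 h (adjusted p = 0.235) and 5 days (0.172). Its PCN call at 6 h was also lost there (0.178). Cyp3a2 differed at 5 days by 2.58 ± 0.48 (adjusted p = 0.00218) for phenobarbital and 2.09 ± 0.48 (adjusted p = 0.0114) for PCN. With rat 1003 kept these had adjusted p of 0.387 and 0.364, and the phenobarbital one had 0.285 in a fit of only the groups compared. With a pseudocount of 64 the PCN difference was 0.91 (adjusted p = 0.132), and vehicle females lay at or near the floor. Cyp3a18 differed by 2.34 ± 0.40 (adjusted p = 1.27e-04) for PCN at 5 days. Cyp3a9, called in males and not in females, had a difference of -1.91 ± 0.68 (adjusted p = 0.465) for phenobarbital and -2.11 ± 0.68 (adjusted p = 0.156) for PCN at 5 days, and neither passed. Without male vehicle rat 1005 the phenobarbital count at 6 h was 4, and the lead Cyp3a23-3a1 probe set then differed by 0.94 (adjusted p = 0.033).

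**Figure D3:**
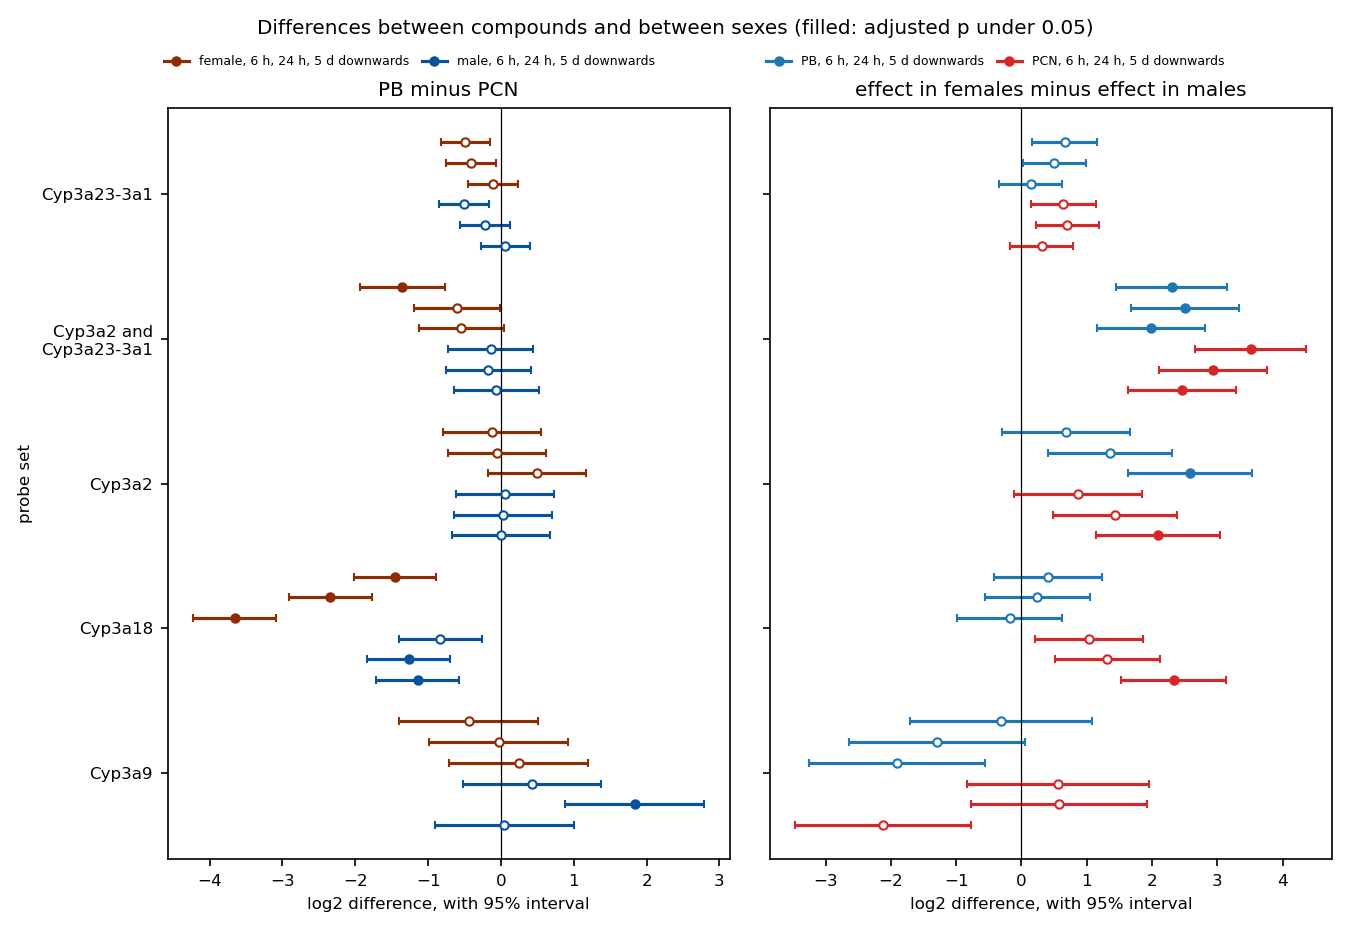
Left panel: phenobarbital minus PCN (log2, horizontal axis) for Cyp3a probe sets by sex and time. Right panel: effect in females minus effect in males for each compound and time. Bars are 95% intervals and filled points have an adjusted p under 0.05; Cyp3a18 in females lies furthest below 0 on the left, and the shared probe set lies above 2 at 6 h and 24 h on the right.

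Change with time was tested as the effect at the later time minus the effect at the earlier. None of 64 tests passed by limma, and 11 had an unadjusted p under 0.05, while 0.160, 0.217, 0.309 and 0.217 percent of all probe sets were called in males and 2.91, 1.64, 0.275 and 0.584 percent in females, in the order of phenobarbital at 24 h minus 6 h, phenobarbital at 5 days minus 24 h, and the same for PCN. Leaving out a single rat gave at most 1 call in any of these comparisons, and no other setting gave one. The lowest adjusted p belonged to the lead Cyp3a23-3a1 probe set in PCN females, at 5 days minus 24 h: -0.84 ± 0.24 (adjusted p = 0.0947). It passed at -0.99 (adjusted p = 0.031) without vehicle rat 1514 and at -0.92 (adjusted p = 0.049) without PCN rat 5508. Cyp3a2 in phenobarbital females differed by 1.35 ± 0.48 (adjusted p = 0.191) between the same times, and by 1.76 (adjusted p = 0.021) without phenobarbital rat 4511. Cyp3a18 in PCN females differed by 1.1 ± 0.40 (adjusted p = 0.331).

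Over the 18 groups of the phenobarbital and PCN study the level of Cyp3a23-3a1 was lowest in vehicle females at 6 h (mean 10.51) and highest in PCN females at 24 h (12.78). Cyp3a18 was lowest in vehicle females at 5 days (6.70) and highest in PCN males at 5 days (11.35). Cyp3a2 was lowest in vehicle females at 6 h (4.13) and highest in phenobarbital males at 24 h (11.64), and Cyp3a9 ran from 6.69 in vehicle males at 24 h to 10.14 in phenobarbital females at 5 days. In these orders most neighbours differed by less than their spread: the gap was above the larger of both SDs in 3 of 17 neighbouring pairs for Cyp3a23-3a1, 5 for Cyp3a18, 2 for Cyp3a2, 0 for Cyp3a9 and 3 for the shared probe set. Across the same 18 means, which share arrays, Cyp3a18 correlated with Cyp3a2 at 0.82, Cyp3a2 with Cyp3a9 at -0.57 and Cyp3a23-3a1 with Cyp3a2 at 0.25. The probe sets most like Cyp3a23-3a1 over these means were those of Mcm6, a DNA replication helicase (0.91), and Gsr, glutathione reductase (0.87 and 0.86). Gclm, a subunit of glutathione synthesis, was most like Cyp3a18 (0.92 and 0.89), with C8h11orf54 (0.90). Gsta3, a glutathione transferase (0.84 and 0.83), and Tnc, a matrix protein (0.83), were most like Cyp3a9. The probe sets most like Cyp3a2 were Cyp2c11, a male-biased P450, Spink1l and Obp3, each at 0.98. Some of these probe sets came near the floor. Group means ran from 4.00 to 6.30 for Mcm6, 4.48 to 7.77 for 1 Gsr probe set and 4.47 to 6.53 for Tnc. These correlations are Pearson's r over 18 group means and carry no test.

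Other genes of the pathway were read from 5 lists. Of 16 measured other targets of CAR and PXR, 2, 8 and 11 rose in phenobarbital males at 6 h, 24 h and 5 days, 3, 3 and 9 in PCN males, 1, 9 and 8 in phenobarbital females and 5, 8 and 11 in PCN females. At most 1 fell in any comparison. The list's median was 0.30, 0.76 and 0.87 in phenobarbital males, and 1.68 in PCN females at 5 days, against 0 over all probe sets. Cyp2b2, the classic phenobarbital-inducible P450, rose with phenobarbital at 24 h by 4.60 in females and 3.76 in males, and with PCN at 5 days by 3.17 in females. Gsta3 rose by 3.76 and Abcc3, an export pump, by 2.54 in phenobarbital males at 5 days, where Sult2a1, a steroid sulfotransferase, fell by 1.14. In PCN males Slco1a4, an uptake transporter, rose by 1.81 at 24 h and Gsta3 by 3.15 at 5 days. Cyp1a2 fell with PCN at 5 days, with differences of -2.31 in females and -1.19 in males.

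Of 7 measured genes of P450 partners and haem supply, 2, 4 and 4 rose in phenobarbital males, 2, 1 and 4 in PCN males, 0, 4 and 2 in phenobarbital females and 2, 4 and 4 in PCN females. Por, the reductase that feeds electrons to P450s, rose by 1.04, 1.79 and 1.21 in phenobarbital males and by 2.16 in PCN females at 5 days. Alas1, the first enzyme of haem synthesis, rose by 1.60, 1.78 and 1.69 in phenobarbital males and by 1.48, 1.46 and 1.82 in PCN females. In phenobarbital females at 6 h Cyb5b fell by 0.74. Of 8 measured receptors and regulators, Vdr fell in phenobarbital males, with differences of -1.21 at 24 h and -2.6 at 5 days, Foxa3 fell by 0.94 there at 5 days, and no other passed. The receptors PXR (Nr1i2) and CAR (Nr1i3) were not measured on this array. Of 5 measured genes under growth hormone control, Cyp2c11 rose in PCN females by 1.17 at 24 h and 1.65 at 5 days. This was read from its brightest probe set alone, and changes on its other probe sets are not given here. The Cyp2c11 probe sets were unlike in vehicle females, with medians of 4.00, 5.64 and 8.14. Ghr, the growth hormone receptor, fell at 24 h, with differences of -0.72 in phenobarbital males and -1.10 in phenobarbital females. In PCN females at 5 days Ghr differed by -1.15.

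The rats of the D3T study carry the label female, and their male-biased P450 genes lay near the levels of males in the phenobarbital and PCN study, with the female-biased Cyp2c12 below both sexes. On the same probe sets, though normalised separately, the male-biased Cyp2c13 read 11.22 to 11.38 in D3T rats and 10.86 to 11.37 in control rats, where vehicle females of the other study read 4.07 to 5.66 and vehicle males 10.68 to 11.84. The female-biased Cyp2c12 read 4.52 to 6.28 in D3T rats and 4.63 to 5.96 in control rats, where those vehicle females read 10.78 to 11.31 and vehicle males 7.66 to 9.67. Cyp3a2 read 8.85 to 9.47 in D3T rats and 10.53 to 10.85 in control rats, where those vehicle females read 4.00 to 5.25 and vehicle males 11.21 to 11.90. In the 3-week PFOS study, on the same array type, the females had Cyp2c12 at 10.24 to 10.51 with PFOS and 10.38 to 10.53 with vehicle. The cause was not tested. The arrays also differed in brightness by diet: mean deposited intensity was 93.3 to 117 for D3T diet and 276 to 417 for control diet, so brightness and diet cannot be told apart.

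Cyp3a2 was lower in D3T rats. It read 8.85, 9.27, 9.31 and 9.47 in D3T rats, against 10.53, 10.62, 10.83 and 10.85 in control rats. The groups were apart by more than 1 log2 unit, with a difference of -1.48 ± 0.15 (adjusted p = 0.00319), 0.358 of the control level. Of the 8 probe sets 4 were called lower and 0 higher, where 7.33 percent of all probe sets were lower and 5.23 percent higher. The median of the 8 was -0.60, against 0 over all.

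For Cyp3a23-3a1 the 4 probe sets did not give 1 answer. L24207_r_at read 6.64, 7.31, 7.32 and 7.65 in D3T rats, against 8.23, 8.46, 8.48 and 8.58 in control rats, and D13912_s_at read 8.68, 8.78, 8.87 and 8.99 in D3T rats, against 9.47, 9.47, 9.59 and 9.91 in control rats. Both were lower without overlap, with differences of -1.21 ± 0.22 (adjusted p = 0.0164) and -0.78 ± 0.12 (adjusted p = 0.0104). The lead probe set read 9.89, 10.18, 10.25 and 10.31 in D3T rats, against 10.37, 10.54, 10.65 and 10.72 in control rats, with a difference of -0.41 ± 0.12 (adjusted p = 0.0699). L24207_i_at read 9.37, 9.47, 9.52 and 9.60 in D3T rats, against 9.29, 9.45, 9.48 and 9.60 in control rats, with a difference of 0.03 ± 0.08 (adjusted p = 0.937). The shared probe set was lower, at -1.0 ± 0.22 (adjusted p = 0.0328), a call that was lost without any 1 of 5 rats (adjusted p 0.062 to 0.085).

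Cyp3a18 read 8.43, 8.52, 8.73 and 8.91 in D3T rats, against 8.68, 9.03, 9.24 and 9.30 in control rats. The groups overlapped and the difference was -0.42 ± 0.17 (adjusted p = 0.185). Cyp3a9 read 4.78, 4.92, 5.32 and 5.34 in D3T rats, against 4.00, 4.95, 5.10 and 5.36 in control rats, near the floor in both, with a difference of 0.24 ± 0.32 (adjusted p = 0.752). Under median scaling in place of quantile normalisation, 7 of 8 were lower: the lead Cyp3a23-3a1 probe set at -0.98 (adjusted p = 7.2e-04), Cyp3a18 at -1.22 (adjusted p = 3.57e-04) and L24207_i_at, whose sign turned, at -0.76 (adjusted p = 6.2e-04). The direction of L24207_i_at therefore depends on the scaling.

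Cell markers also differed by diet. Of 7 measured hepatocyte markers 4 were lower, with a sum of 39258 to 41112 in D3T rats, against 44201 to 45556 in control rats. Of 4 macrophage markers 2 were lower (741 to 982 in D3T rats, against 1232 to 1478 in control rats). Of 3 stellate cell markers Col1a1 was lower (a sum of 228 to 278 in D3T rats, against 474 to 596 in control rats, with Des at the floor), of 2 blood markers Hbb was lower (a sum of 2170 to 2731 in D3T rats, against 3168 to 4452 in control rats), and of 3 lymphocyte markers Cd79b was higher by 0.51. Their part in the result was not tested. Of 16 other CAR and PXR targets 7 rose and 2 fell (median 0.45): Gsta3 rose by 5.21 and Akr7a3, an aldehyde reductase, by 3.36, and Sult2a1 fell by 2.21. Por fell by 0.86, the 1 of 7 partners that passed.

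After 3 weeks of PFOS the females had higher values on 6 of the 8 Cyp3a probe sets, with 2 rats a group and no call. The shared probe set read 11.35 and 11.37 in PFOS rats, against 7.93 and 8.87 in vehicle rats. The lead Cyp3a23-3a1 probe set read 12.14 and 12.32 in PFOS rats, against 10.50 and 10.92 in vehicle rats. Cyp3a18 read 6.84 and 7.64 in PFOS rats, against 4.85 and 5.63 in vehicle rats. In each of these both PFOS rats were above both vehicle rats, as they were for D13912_s_at, L24207_i_at and L24207_r_at, and 9.50 percent of all 8740 probe sets showed that pattern.

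The differences were 2.96 ± 0.43 on the shared probe set (7.79-fold), 1.51 ± 0.20 on the lead one, 1.17 ± 0.30, 1.50 ± 0.42 and 1.82 ± 0.73 on the other Cyp3a23-3a1 probe sets and 2.00 ± 0.50 for Cyp3a18. Limma called 0 of 8 members and 0 of all 8740 probe sets (0 percent), with adjusted p of 0.732 for the shared probe set, 0.707 for the lead one and 0.972 for Cyp3a18. At an unadjusted p under 0.05 there were 5 of 8 members and 421 of all. When the dimmest 33.3 percent of probe sets were dropped, the shared probe set passed (adjusted p = 0.0224), and the other settings called 0. Cyp3a2 differed by -0.20 ± 0.67 and Cyp3a9 by 0.08 ± 0.58, with overlapping rats.

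The sum of hepatocyte markers was 33473 to 48208 in PFOS rats, against 36716 to 41307 in vehicle rats, and that of macrophage markers 1033 to 1320 in PFOS rats, against 1355 to 2072 in vehicle rats, with Csf1r at the floor. Their part in the result was not tested. None of the other pathway genes passed, and the median of the 16 other CAR and PXR targets was 0.90, against 0 over all probe sets. The median of the 8 Cyp3a probe sets was 1.51. It cannot be ranked against that of the targets, which hold a single probe set for each gene. Most of the 8 name Cyp3a23-3a1. By gene, the lead probe sets differed by 1.51 for Cyp3a23-3a1, 2.00 for Cyp3a18, -0.20 for Cyp3a2 and 0.08 for Cyp3a9.

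**Figure D4:**
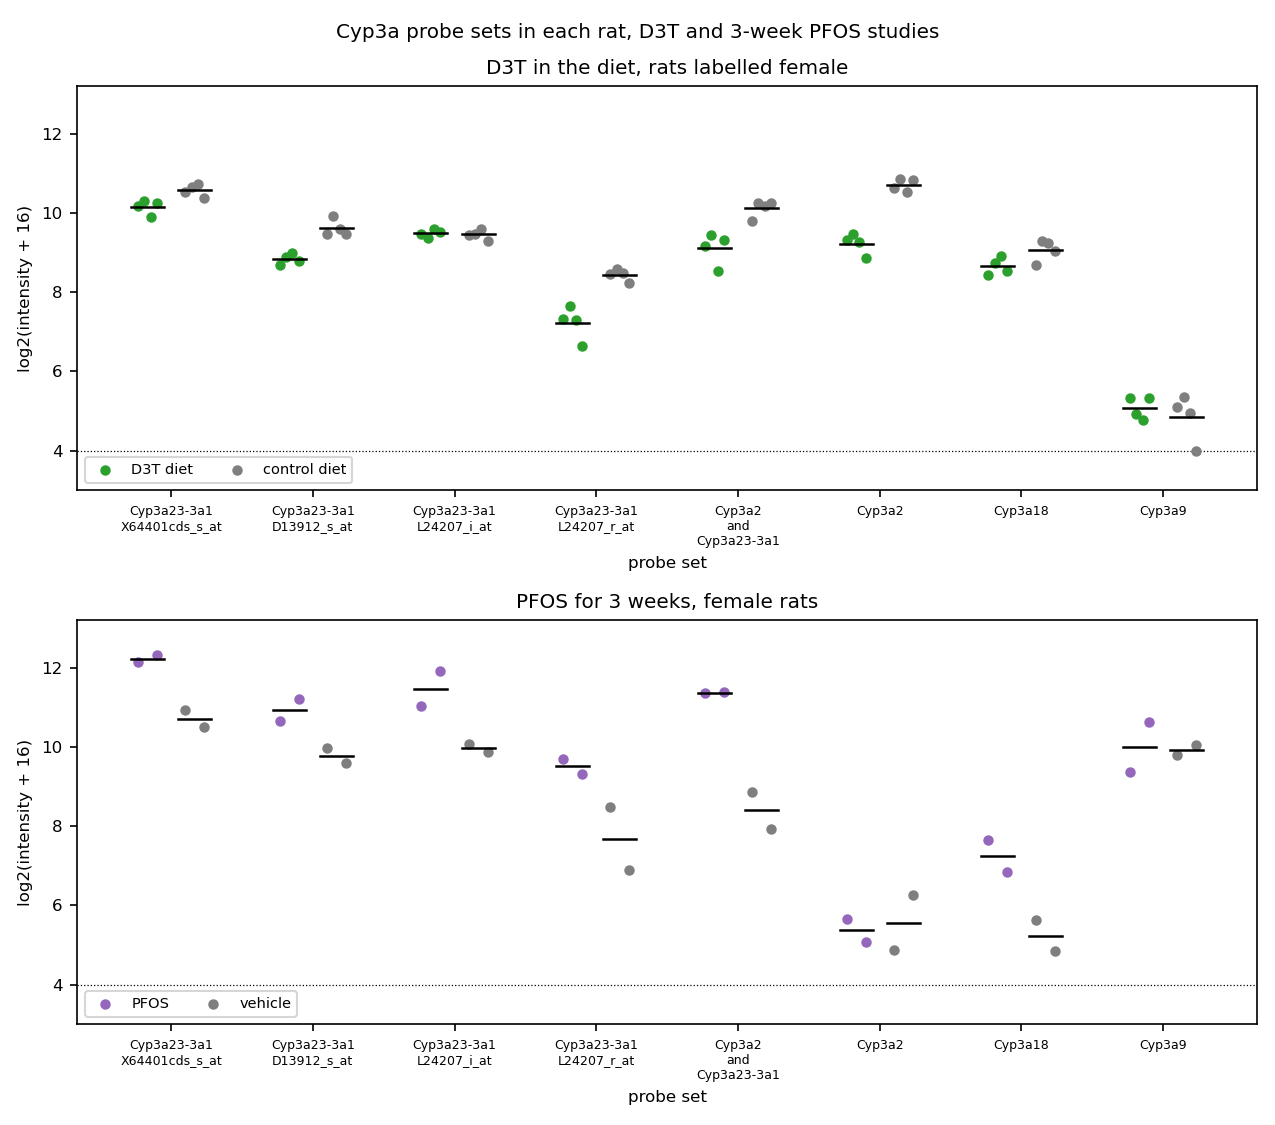
Log2 normalised intensity of the 8 Cyp3a probe sets in each rat of the D3T study (upper panel, rats labelled female) and of the 3-week PFOS study (lower panel), treated beside control. Points are rats and bars are means; Cyp3a2 lies lower in D3T rats, and the shared probe set lies higher in both PFOS rats.

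In males given PFOA or PFOS the Cyp3a differences were at most 0.41 log2 units in size, except for Cyp3a9. Cyp3a9 differed by 0.83 with PFOA and 1.16 with PFOS, and neither passed. PFOA and PFOS were given at different doses and share their vehicle rats, so their values are set side by side and not compared. Cyp3a23-3a1 read 13.16, 13.32 and 13.34 in PFOA rats and 13.01, 13.07 and 13.16 in PFOS rats, against 12.79, 12.90 and 12.91 in vehicle rats. All treated rats were above all vehicle rats. The difference was 0.41 ± 0.07 (adjusted p = 0.0228) for PFOA, 1.33-fold, and 0.21 ± 0.07 (adjusted p = 0.275) for PFOS, which did not pass. Of the 4 probe sets PFOA raised 1 and lowered 1, where 3.23 percent of all 31042 rose and 2.82 percent fell.

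Cyp3a18 read 12.40, 12.47 and 12.54 in PFOA rats and 12.72, 12.74 and 12.76 in PFOS rats, against 12.67, 12.72 and 12.79 in vehicle rats. The PFOA rats lay below all others, with a difference of -0.26 ± 0.05 (adjusted p = 0.0327), and PFOS differed by 0.01 ± 0.05. Both PFOA calls were lost under median scaling, at 0.18 (adjusted p = 0.701) for Cyp3a23-3a1 and -0.36 (adjusted p = 0.446) for Cyp3a18, in a fit of only the groups compared, with the dimmest 33.3 percent of probe sets dropped, and without any 1 of 5 rats (adjusted p 0.053 to 0.074 and 0.065 to 0.093).

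Cyp3a9 read 10.80, 11.69 and 12.06 in PFOA rats and 11.70, 11.83 and 12.03 in PFOS rats, against 9.91, 10.50 and 11.66 in vehicle rats. The vehicle rats spread over more than 1 log2 unit. All PFOS rats lay above all vehicle rats, and the PFOA rats overlapped with them. The differences of 0.83 ± 0.50 (adjusted p = 0.433) for PFOA and 1.16 ± 0.50 (adjusted p = 0.426) for PFOS did not pass. Cyp3a2 read 12.87, 12.87 and 12.88 in PFOA rats and 12.81, 12.93 and 12.94 in PFOS rats, against 12.80, 12.80 and 12.87 in vehicle rats, with differences of 0.05 ± 0.05 (adjusted p = 0.606) and 0.07 ± 0.05 (adjusted p = 0.628). Limma called 0 of 4 for PFOS, where 0.461 percent of all probe sets were called and 3726 had an unadjusted p under 0.05, and no other setting called any.

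Other cell types moved with PFOA. The sum of endothelial markers was 1113 to 1502 in PFOA rats and 1812 to 2323 in PFOS rats, against 2670 to 3473 in vehicle rats, and 1 of 4, Kdr, was lower in PFOA rats, at -1.83. That of stellate cell markers was 1848 to 2325 in PFOA rats, against 2954 to 3705 in vehicle rats, with 2 of 5 lower. That of bile duct markers was 715 to 833 in PFOA rats, against 286 to 381 in vehicle rats, and 1 of 3, Epcam, was higher by 1.28. The hepatocyte sum was 56157 to 62215 in PFOA rats and 64065 to 66581 in PFOS rats, against 68740 to 70696 in vehicle rats, with 2 of 7 lower in PFOA rats. The macrophage sum was 3461 to 5614 in PFOA rats, against 5779 to 8599 in vehicle rats, and the lymphocyte sum 80.2 to 81.3 in PFOA rats, against 128 to 154 in vehicle rats, with 0 of 6 and 0 of 4 markers called. Their part in the result was not tested. Of 15 other CAR and PXR targets 5 rose and 1 fell with PFOA (median 0.39): Ces2c, a carboxylesterase, rose by 3.38 and Cyp1a2 fell by 2.80. Abcc3, a transporter, was called higher, with a mean of 7.26 in PFOA rats and all vehicle rats at the floor of 4, so no fold is given. Por rose by 3.74 and Alas1 by 2.44, the 2 of 9 partners that passed. None of the 10 measured receptors passed, with Nr1i2 at 0.27 and Nr1i3 at 0.02. With PFOS none of any list passed, which does not show that these genes were unchanged. Just short of the threshold with PFOS were Por at 3.41 (adjusted p = 0.0561) and Aldh1a1 at 1.28 (adjusted p = 0.0527).

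Cyp3a9 fell with Wy-14643 in Wistar Hanover males after 3 and 7 days. After 1 day it read 10.29, 10.48 and 10.61 in Wy-14643 rats, against 10.15, 10.61 and 10.91 in vehicle rats. At 3 days it read 7.62, 8.42 and 9.14 in Wy-14643 rats, against 10.77, 10.92 and 11.07 in vehicle rats. At 7 days it read 7.16, 7.65 and 9.91 in Wy-14643 rats, against 10.39, 10.64 and 11.09 in vehicle rats. The groups overlapped at 1 day and not later, and 1 Wy-14643 rat at 7 days stood above the other 2 by more than 2 log2 units.

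The Cyp3a9 difference was -0.09 ± 0.57 (adjusted p = 1), -2.53 ± 0.57 (adjusted p = 0.0132) and -2.47 ± 0.57 (adjusted p = 0.0118), the last being 0.181 of the vehicle level. Of the 4 probe sets 0, 1 and 1 were called at 1, 3 and 7 days, where 5.51, 5.22 and 6.50 percent of all 15866 fell. The effect at 7 days minus that at 1 day was -2.37 ± 0.80 (adjusted p = 0.171) and did not pass, where 1.87 percent of all were called. It passed, at -3.21 (adjusted p = 0.008), without Wy-14643 rat 12. The 3-day call was lost without Wy-14643 rat 08, at -2.15 (adjusted p = 0.061), and both calls were lost in a fit of only the groups compared (adjusted p = 0.0508 and 0.18).

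Cyp3a18 read 11.39, 11.99 and 12.31 in Wy-14643 rats at 1 day, against 12.71, 12.74 and 12.75 in vehicle rats. At 7 days it read 11.57, 11.68 and 12.33 in Wy-14643 rats, against 12.49, 12.76 and 12.76 in vehicle rats. At both times all Wy-14643 rats were below all vehicle rats. The difference was -0.83 ± 0.27 (adjusted p = 0.0695), -0.40 ± 0.27 (adjusted p = 0.41) and -0.81 ± 0.27 (adjusted p = 0.0713) at 1, 3 and 7 days, and none passed. It passed at 1 day without Wy-14643 rat 04 (-1.05, adjusted p = 0.043) and at 7 days without rat 12 (-1.04, adjusted p = 0.029). Cyp3a2 differed by -0.33, 0.04 and -0.18 and Cyp3a23-3a1 by -0.43, 0.31 and 0.19, and none passed.

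Of 15 other CAR and PXR targets 1, 2 and 2 rose and 4, 3 and 3 fell at 1, 3 and 7 days. Of all probe sets 5.51, 5.22 and 6.50 percent fell at these times, and the share that rose is not given here. Aldh1a1, a retinal dehydrogenase, rose by 3.39, 3.63 and 4.22, and Ugt2b1, a glucuronosyltransferase, fell, with differences of -2.13, -2.35 and -2.50. The glucocorticoid receptor Nr3c1 fell, with differences of -0.63 at 1 day and -0.53 at 7 days, and Hnf4a, a hepatocyte factor, rose by 0.70 at 3 and 7 days. Nr1i2 differed by -0.50 at 1 day and -0.22 at 7 days and Nr1i3 by 0.32 and 0.52, and neither passed at any time. Of the genes under growth hormone control, Cyp2c12 rose by 2.13 at 3 days. Cyp2c13 differed by -0.21 at 1 and 3 days and Cyp2c11 by -0.62 at 7 days. Of the P450 partners, Por rose by 1.38, Alas1 by 0.65 and Fech by 0.39 at 1 day, where Pgrmc1 differed by -0.47. Alas1 also rose by 0.58 at 3 days. A link of these genes to Cyp3a was not tested. The hepatocyte marker sum was 86282 to 87740, 82450 to 90873 and 82551 to 84836 in Wy-14643 rats, against 94436 to 96811, 93424 to 95668 and 90852 to 93658 in their vehicle rats, with 3, 3 and 2 of 7 markers lower. The blood marker sum at 7 days was 5607 to 8057 in Wy-14643 rats, against 11118 to 14919 in vehicle rats, with both markers lower. At 7 days the macrophage marker Csf1r was also lower, at -0.70, with a sum of 1317 to 1456 in Wy-14643 rats, against 1757 to 4248 in vehicle rats, and the bile duct marker Epcam was higher by 0.91. At 3 days the blood marker Hbb was lower, at -0.61, and the bile duct sum was 378 to 437 in Wy-14643 rats, against 233 to 332 in vehicle rats, with none of its 3 markers called. Mean deposited intensity was 410 to 614 in Wy-14643 rats, against 317 to 486 in vehicle rats. Their part in the result was not tested.

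**Figure D5:**
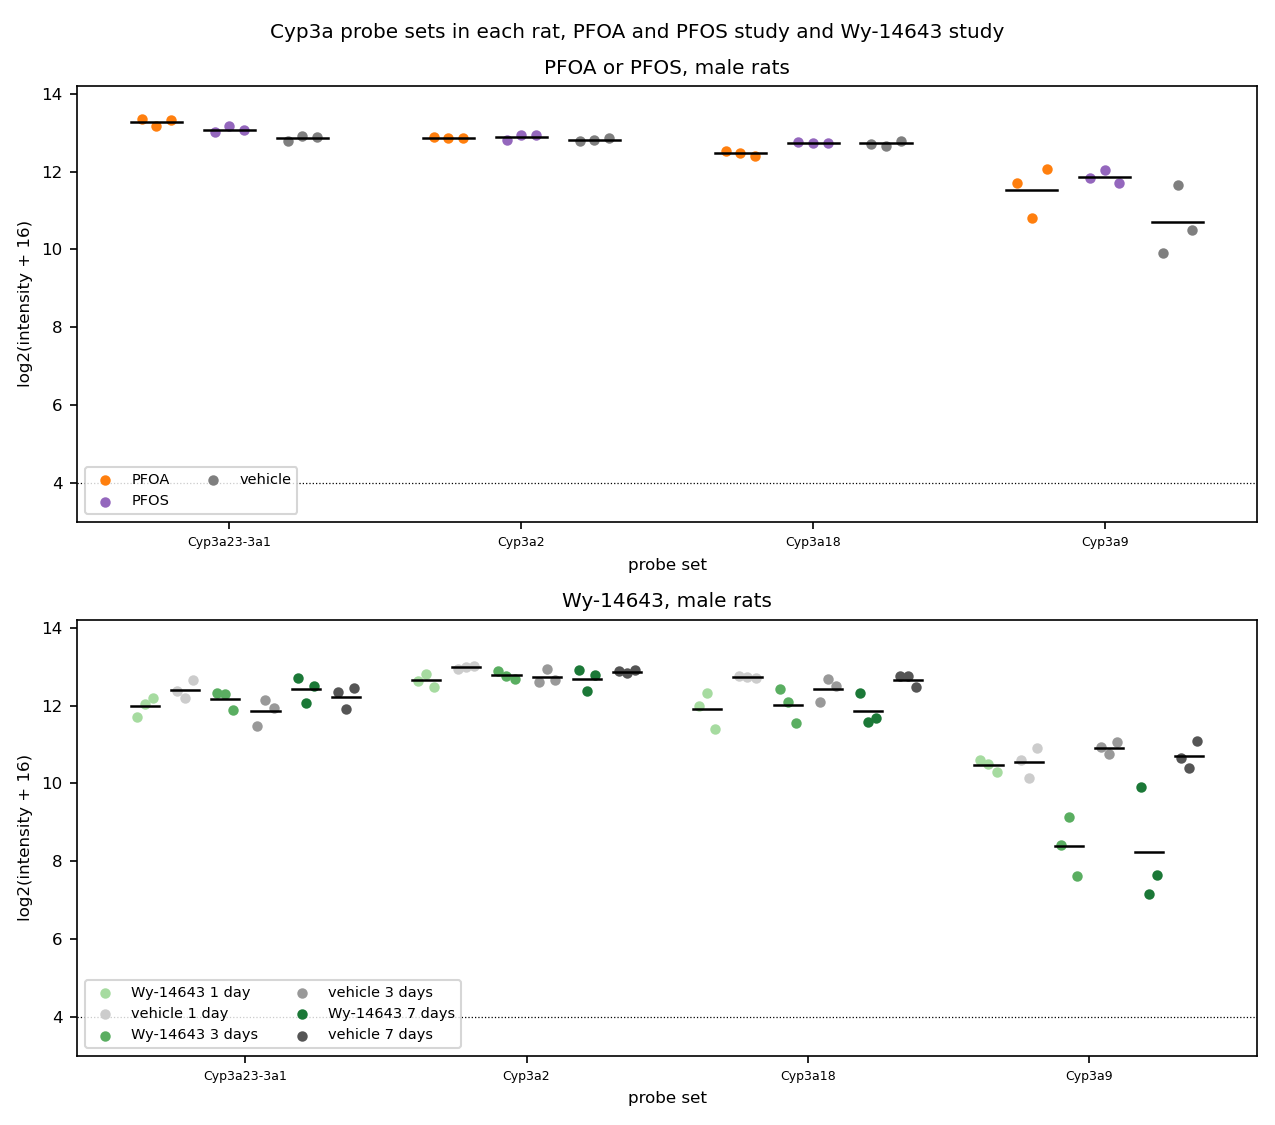
Log2 normalised intensity of the 4 Cyp3a probe sets in each rat of the PFOA and PFOS study (upper panel) and of the Wy-14643 study (lower panel), treated groups beside their vehicle. Points are rats and bars are means; Cyp3a9 lies lower in Wy-14643 rats at 3 and 7 days, and the other genes differ by less than 1 log2 unit.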

How the data were processed

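RNA of 129 rat livers was measured on 3 types of one-colour array, and groups were taken from the sample labels. Values were deposited as linear intensity, one number per probe set and array, some below 0, and their upstream steps were not given in the sources used here. Within each study values below 0 were set to 0, arrays were quantile normalised where their log2 medians ranged over more than 0.5 (all studies but the 3-week PFOS study, which was used as deposited), and log2(value + 16) was taken. Control probe sets were left out, which left 8740, 31042 and 15866 tested. A limma 3.58.1 fit in R 4.3.3 was made for each study (group means, eBayes, Benjamini-Hochberg over all tested probe sets, threshold 0.05, two-sided) in 43 comparisons. No source says that rats of a group were dosed or prepared separately beyond their rat numbers, so p-values measure the spread between these samples, and the number of arrays limits the precision.

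The members, the 5 pathway lists, the 8 marker lists and the tests were chosen with earlier results of these data known. All probe sets naming a member were described, its lead probe set being the one with the highest mean that names no other gene. Pathway genes were named where they were among up to 3 of a list with the largest change past the threshold, and likeness was ranked by Pearson correlation over 18 group means. Marker sums are sums of normalised intensity. On simulated data, where 50 genes were changed at each size, the fit was tested as follows: a log2 change of 1 was recovered for 44 in males given phenobarbital at 6 h (8740 genes), 26 for D3T, 11 for 3-week PFOS, 7 for PFOA (31042 genes) and 28 for Wy-14643 at 1 day (15866 genes). In the same order 12, 12, 6, 4 and 13 unchanged genes were called. The simulated noise was independent between arrays, with no brightness or normalisation effect, so recovery on the real arrays can differ.

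The alternatives were pseudocounts of 1 and 64, median scaling (quantile normalisation in the 3-week study), a fit of only the groups compared, moderation with trend and robust settings, omission of the 33.3 percent of probe sets with the lowest mean, rat 1003 kept, each rat left out in turn and, for D3T, the replicate number as a block. Same-numbered D3T and control rats deviated from their group means with correlations of 0.27, -0.08, -0.09 and -0.20, so the numbers were not taken to pair the rats. Promoters came from RefSeq on GRCr8 and were searched with Python 3.11.15 and aligned with Biopython 1.88. Figures were drawn with matplotlib 3.10.9.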

Additional observations from a re-analysis of the deposited data

Results flagged for a closer look

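Of 160 groups of 4 to 5 rats per Cyp3a probe set 8 (5 percent) held a rat far from the others, and chance flags about 1 in 20. Cyp3a18 read 10.34 in PCN male 5005 at 6 h, with its nearest neighbour at 10.9. L24207_r_at of Cyp3a23-3a1 read 9.5 in phenobarbital female 4515 at 5 days (nearest 10.15) and 7.96 in vehicle male 1012 at 5 days (nearest 9.13). Cyp3a2 read 11.21 in the same vehicle male (nearest 11.57), 4.61 in vehicle female 1503 at 6 h (nearest 4.06) and 5.25 in vehicle female 1513 at 5 days, where the others lay at the floor of 4. Cyp3a9 read 9.64 in phenobarbital male 4008 at 24 h (nearest 8.97), and the shared Cyp3a2 and Cyp3a23-3a1 probe set read 9.79 in vehicle female 1508 at 24 h (nearest 8.71).

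The effect was larger in females than in males, by limma's test of the difference, in 9 of 48 tests. On the shared probe set the differences were 2.3, 2.51 and 1.99 for phenobarbital and 3.52, 2.94 and 2.46 for PCN at 6 h, 24 h and 5 days. For Cyp3a2 at 5 days they were 2.58 for phenobarbital and 2.09 for PCN, and for Cyp3a18 with PCN at 5 days 2.34. Vehicle females began lower than vehicle males on each of these probe sets.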

How the results depend on the processing

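The counts of Cyp3a probe sets called are given here as the alternative's value against the reported one, and the cause of each change was not tested. Under median scaling they were 7 against 4 for D3T, 0 against 2 for PFOA, 2 against 1 for Wy-14643 at 7 days, 2 against 4 for phenobarbital minus PCN in females at 6 h and 1 against 2 for the phenobarbital sex difference at 5 days. L24207_i_at under D3T turned from 0.03 to -0.76 there, the 1 value that reversed. In fits of only the groups compared, which have fewer samples, the counts were 0 against 3 for phenobarbital and for PCN in males at 6 h, 0 against 5 for phenobarbital in females at 6 h, 3 against 5 for phenobarbital in males at 5 days, 1 against 2 for phenobarbital minus PCN in males at 24 h, 0 against 1 for both sex differences at 6 h, 0 against 2 for that of phenobarbital at 5 days, 3 against 5 between vehicle sexes at 6 h and at 24 h, 0 against 2 for PFOA, and 0 against 1 for Wy-14643 at 3 and at 7 days. With rat 1003 kept they were 2 against 4 for phenobarbital minus PCN in females at 6 h and 1 against 2 for the phenobarbital sex difference at 5 days. With the dimmest 33.3 percent of probe sets dropped they were 1 against 0 for 3-week PFOS, 0 against 2 for PFOA, 1 against 0 for Wy-14643 at 1 day and 2 against 1 at 7 days. A pseudocount of 1 gave 1 against 2 for PFOA. A pseudocount of 64, trend and robust moderation, and quantile normalisation of the 3-week study moved none of the counts they were run for by over 1.5 times.

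Leaving out 1 rat at a time gave counts of 0 to 3 for phenobarbital in males at 6 h, 1 to 4 and 1 to 2 for the phenobarbital and PCN sex differences at 6 h, 1 to 2 for that of phenobarbital at 5 days and 3 to 7 between vehicle sexes at 24 h. It gave 0 to 1 for phenobarbital and for PCN in females at 5 days minus 24 h, and 0 to 1, 1 to 2 and 2 to 4 for phenobarbital minus PCN in males at 6 h, males at 24 h and females at 6 h. The range was 2 to 4 for D3T (2 without control rat 3), 0 to 1 for PFOA, 0 to 1 for Wy-14643 at 1 day and at 3 days, 1 to 2 at 7 days and 0 to 1 for 7 days minus 1 day. With the replicate block, the D3T count was 3 against 4, since the shared probe set at -1.0 had an adjusted p of 0.101, and no other call changed. With 2 rats a group the 3-week PFOS study recovered 19 of 50 simulated log2 changes of 2 and 17 of 50 of 3. Values at the floor limit the size of changes in Cyp3a2 in females.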
